A study of Mus musculus with 14 samples.

Results

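Hematopoietic stem and progenitor cells (HSPC) whose deposited cell cycle label is S were compared with those labelled G1 in the bone marrow of 4 mice. The label alone chose the cells: 1047 of the 14842 deposited HSPC (7.05%) were labelled S, 11074 (74.6%) G1 and 2721 (18.3%) G2M. The series holds 14 samples of marrow stroma and progenitors from mice with and without mammary tumours, and the 4 single-cell HSPC libraries are the ones used here. Their genotype label reads WT mouse for 2 and PyMT mouse for 2, PyMT being a strain that grows mammary tumours under the polyoma middle T oncogene. All 4 titles begin with PyMT, but 2 of the libraries are WT by genotype label and by condition column, which was followed. Each library is a mouse of its own in the metadata. No source used here gives the promoter of the transgene, the age, sex and strain background of the mice or the gates of the sort. WT 1 gave 236 cells labelled S and 2525 labelled G1, WT 2 gave 139 and 1636, PyMT 1 gave 292 and 2661, and PyMT 2 gave 380 and 4252.

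Cells copy their genome in S phase. In G1, E2F transcription factors that have been released from the retinoblastoma protein switch on genes that load the MCM helicase on replication origins, make deoxynucleotides and build the replication fork. The histone genes of the clusters are transcribed as DNA is copied, to package the new strands, and the genes of mitosis follow late in S phase and in G2. Most long-term stem cells of the marrow rest outside the cycle, while committed progenitors divide often.

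Start sites of 4 genes that mark different stretches of the cycle are shown because E2F sites are a known element of promoters that switch on before S phase, and the cell cycle homology region (CHR) of promoters that switch on later. The windows run from 250 bases before the start to 50 bases after it and were taken from RefSeq for GRCm38.p6. Letters searched on both strands were TTTCCCGC, TTTGGCGC, TTTCGCGC and TTTGCCGC for E2F and TTTGAA for CHR, and capitals mark the matches.

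Tk1, chr11:117825965-117826264, minus strand: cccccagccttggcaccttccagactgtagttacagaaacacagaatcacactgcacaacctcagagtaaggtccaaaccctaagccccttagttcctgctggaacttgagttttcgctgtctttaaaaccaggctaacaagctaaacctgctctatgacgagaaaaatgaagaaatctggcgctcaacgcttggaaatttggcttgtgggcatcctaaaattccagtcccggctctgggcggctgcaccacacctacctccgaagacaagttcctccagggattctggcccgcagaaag
Mcm6, chr1:128359656-128359955, minus strand: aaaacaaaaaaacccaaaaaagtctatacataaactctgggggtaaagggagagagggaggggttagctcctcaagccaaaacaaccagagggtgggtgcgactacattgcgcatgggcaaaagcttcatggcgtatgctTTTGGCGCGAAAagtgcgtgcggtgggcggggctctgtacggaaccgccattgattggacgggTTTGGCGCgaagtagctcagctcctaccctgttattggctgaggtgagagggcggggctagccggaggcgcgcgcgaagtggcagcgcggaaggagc
Plk1, chr7:122159185-122159484, plus strand: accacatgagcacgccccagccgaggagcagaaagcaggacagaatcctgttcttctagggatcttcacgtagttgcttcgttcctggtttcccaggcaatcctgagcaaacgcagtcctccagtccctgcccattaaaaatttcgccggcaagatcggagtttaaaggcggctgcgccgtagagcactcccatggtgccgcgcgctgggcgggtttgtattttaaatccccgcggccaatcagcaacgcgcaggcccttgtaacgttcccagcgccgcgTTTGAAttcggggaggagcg
Aurka, chr2:172370521-172370820, minus strand: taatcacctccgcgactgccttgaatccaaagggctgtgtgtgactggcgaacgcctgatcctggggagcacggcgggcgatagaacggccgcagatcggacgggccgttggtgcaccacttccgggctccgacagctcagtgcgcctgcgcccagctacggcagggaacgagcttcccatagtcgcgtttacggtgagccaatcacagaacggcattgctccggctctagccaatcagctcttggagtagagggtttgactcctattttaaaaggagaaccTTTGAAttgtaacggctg

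Mcm6, a subunit of the replicative helicase, held 3 E2F matches, of which those at 110 and 106 bases before the start overlap. The third lies 47 bases before the start. Plk1 and Aurka, kinases of mitosis, each held 1 CHR match just after the start, and the window of Tk1, thymidine kinase, held neither. The windows of the S-phase markers Tyms and E2f1, which are not printed, also held neither. Of all 32851 windows, 2.26% held E2F letters and 17.89% held CHR letters. Of the 8294 tested genes with a window, 4.94% held E2F letters and 14.22% CHR letters. Among tested members with a window, E2F letters stood in 10 of 20 genes of origin licensing and firing (50%), 9 of 26 of the replication fork (34.62%) and 1 of 27 of nucleotide synthesis, and CHR letters in 25 of 34 of mitosis (73.53%). Such a match describes the letters and shows no binding.

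The cells labelled S were not a uniform class. No source used here names the tool behind the labels, but cyclone, which scores each cell by the order of gene pairs, gave the same phase in 97.57% of cells when run on the deposited counts. The match was lower for the S label: of the 1047 cells labelled S, cyclone called 788 S. Cyclone calls a cell S when neither its G1 nor its G2M score reaches 0.5, so all 850 cells it called S met this by rule. The highest of the 3 deposited scores was S in 441 of the 1047 cells labelled S (42.1%), G1 in 351 and G2M in 255. By mouse the share with S highest was 49.6% and 48.2% in WT and 29.8% and 44.7% in PyMT. When each cell was thinned to 2000 UMIs, cyclone called 841 of 14624 cells S, and 245 of these were among the 844 it had called S at full depth. Most cells that cyclone called S at full depth therefore had another call at 2000 UMIs.

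Cells labelled S carried more RNA than cells labelled G1 in every mouse. Their median UMI count was 9973.5 against 5629 in WT 1, 9650 against 5660 in WT 2, 10975 against 5962 in PyMT 1 and 6622 against 3592 in PyMT 2. Summed per mouse, cells labelled S held 1363196 to 3208638 UMIs and cells labelled G1 held 10332943 to 18273615. The median mitochondrial share was 2.09% to 2.48% in S and 2.42% to 2.92% in G1. Between pairs of mice, 95 cell barcodes were shared.

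Levels below are CPM (the count of a gene scaled to a fixed total) of the UMIs summed per mouse and label, given in the order WT 1, WT 2, PyMT 1 and PyMT 2. Differences are log2 fold changes of S over G1 with mouse as a block, and a gene passed at an adjusted p under 0.05 (edgeR). Of 10596 genes tested, 2231 (21.1%) were higher and 1945 (18.4%) lower in S. Cyclone reads 627 of the genes in the table, and those are described without a test. Of the 9980 tested genes outside its pairs, 1927 (19.3%) passed as higher and 1873 (18.8%) as lower, with a median change of -0.03. The labels come from the RNA of the same cells, so a p-value of any gene measures how well its change repeats across 4 mice. Scaled by library totals alone the median over all genes was -0.13 and the split became 1341 higher against 3161 lower.

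Tk1, which salvages thymidine for DNA synthesis and is not among the genes of cyclone, stood at 122, 132, 195 and 168 CPM in G1 and at 378, 417, 377 and 389 CPM in S. All 4 S values lay above all 4 G1 values, and the change was 1.33 (SE 0.17, adjusted p = 0.012). Without PyMT 2 the adjusted p was 0.064 and without WT 2 it was 0.054. Tyms, which makes thymidylate and is read by cyclone, stood at 253, 264, 343 and 299 CPM in G1 and at 604, 617, 555 and 618 CPM in S. Again the labels did not overlap.

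The markers of entry into S phase did not separate the labels. Mcm6 stood at 532, 566, 655 and 622 CPM in G1 and at 587, 647, 581 and 638 CPM in S. E2f1, the E2F member that drives entry into S phase, stood at 102, 104, 125 and 110 CPM in G1 and at 103, 117, 90.7 and 97.3 CPM in S. For both the ranges overlap, and the fitted changes of 0.04 and -0.14 are descriptions, since cyclone reads both genes. The other helicase subunits, looked up after the values of Mcm6 were seen, also lay near 0, with changes of -0.13 for Mcm2, -0.04 for Mcm3, -0.23 for Mcm4, 0.19 for Mcm5 and 0.15 for Mcm7. Ung, the uracil-DNA glycosylase and also a gene of cyclone, stood at 198, 192, 234 and 216 CPM in G1 and at 70.3, 70.3, 68.3 and 92.2 CPM in S.

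**Figure D1:**
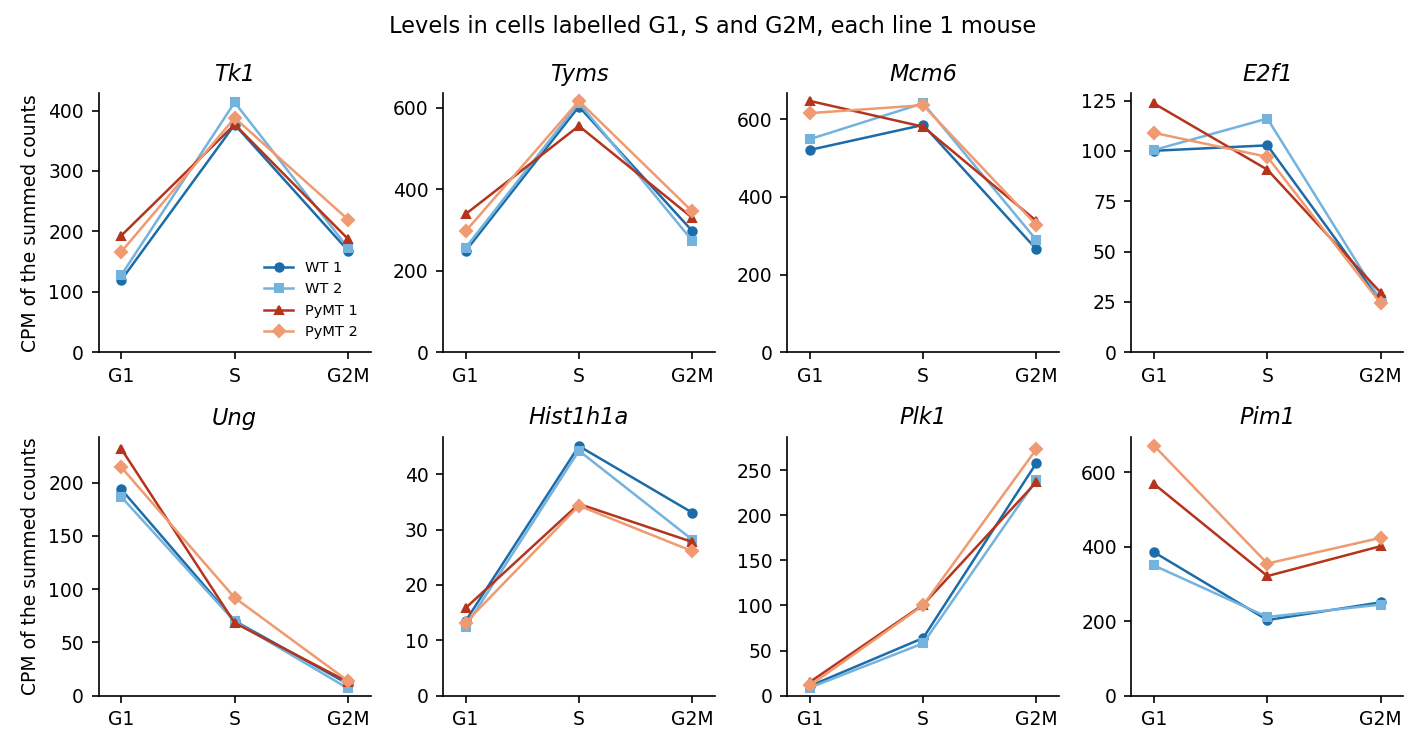
Levels of 8 genes in cells labelled G1, S and G2M (CPM of the UMIs summed per mouse and label, scaled over the 12 sums), each line 1 mouse. Tk1 and Tyms peak in S in every mouse, Mcm6 and E2f1 are about as high in G1 as in S, Ung is highest in G1 and Plk1 in G2M.

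The plot of levels over the 3 labels places the markers in the cycle. On the scale of those 12 sums, Tk1 returned to 168, 173, 187 and 220 CPM in G2M. Plk1, a gene of cyclone, went from 10.7, 8.82, 15.1 and 11.3 CPM in G1 through 63.9, 58.1, 101 and 100 CPM in S to 258, 239, 237 and 274 CPM in G2M. Cells labelled S therefore lay between the other labels for a gene of mitosis and above both for Tk1.

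Among the replication groups, origin licensing and firing had the smallest median change. Of 25 measured members, 17 are read by cyclone. Of the other 8, 5 passed as higher and none as lower, with a median change of 0.22. Mcm10, which helps to start the helicase, rose from 23.98, 24.6, 32.5 and 27.3 CPM in G1 to 42.7, 44.7, 41.5 and 49.04 CPM in S (change 0.69, SE 0.09, adjusted p = 5.0e-08). The 4 S values lie above the 4 G1 values. Within the pairs, Ticrr and Dbf4, which act when origins fire, had changes of 1.09 and 0.89, and Cdc45, a partner of the helicase, 0.65.

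Genes of the replication fork were higher in S. Of 21 members outside the pairs, 16 passed as higher and 1 as lower, with a median change of 0.38. Pold2, a subunit of DNA polymerase delta, rose from 170, 186, 226 and 236 CPM in G1 to 260, 266, 294 and 320 CPM in S (change 0.48, SE 0.04, adjusted p = 2.7e-13). S exceeded G1 in every mouse by a similar step. Pola1, the catalytic subunit of the priming polymerase, changed by 0.69 and Rnaseh2c, which helps to remove ribonucleotides from DNA, by 0.59. Pold4, named after its value was seen, is the small subunit of polymerase delta and was the member that fell (change -0.39, adjusted p = 4.2e-05).

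Genes of nucleotide synthesis moved the same way. Of 27 members outside the pairs, 22 passed as higher and 1 as lower, with a median of 0.29. Mthfd2, a mitochondrial enzyme that supplies one-carbon units for purines and thymidylate, rose from 44.4, 41.6, 74.7 and 49.7 CPM in G1 to 95.4, 79.1, 116 and 112 CPM in S (change 0.95, SE 0.08, adjusted p = 1.5e-11). Dtymk, which phosphorylates thymidylate, changed by 0.44, Nme1 by 0.30 and Gart, an enzyme of purine synthesis, by 0.29. The member that fell was Samhd1, a hydrolase that breaks deoxynucleotides down, from 86.3, 84.4, 67.0 and 86.8 CPM in G1 to 40.2, 42.5, 46.9 and 51.0 CPM in S (change -0.82, SE 0.08, adjusted p = 2.6e-10). All S values of Samhd1 lay below all G1 values.

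The histone genes of the clusters showed the largest median change of the replication groups, 1.41 over 27 tested members. None of them is read by cyclone, and 22 passed as higher and 2 as lower. Hist1h1a, a linker histone, rose from 13.8, 12.8, 16.01 and 13.3 CPM in G1 to 45.2, 44.7, 34.7 and 34.4 CPM in S (change 1.47, SE 0.11, adjusted p = 4.8e-14). Hist1h4d, a core histone, rose from 9.29, 8.03, 9.65 and 7.62 CPM to 42.3, 21.97, 26.5 and 24.5 CPM (change 1.74, SE 0.13, adjusted p = 3.2e-14). S did not overlap with G1 for either gene. Hist1h3g changed by 2.55 and Hist1h2ag by 1.53. Hist1h2bc and Hist1h1c, named after their values were seen, were the 2 that fell, with changes of -1.09 and -0.36. Most histone mRNAs of S phase lack a poly(A) tail, and libraries of polyA RNA capture them poorly. These genes have near-identical copies, and no source used here says how the counting divided shared reads.

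Histone variants and chaperones rose without exception among those that passed: 12 of 15 members outside the pairs were higher, with a median of 0.35. Cenpa, the histone of centromeres, rose from 62.3, 49.4, 68.0 and 57.9 CPM in G1 to 161, 127, 171 and 197 CPM in S (change 1.47, SE 0.07, adjusted p = 5.5e-18). Ssrp1, a subunit of the chaperone FACT, changed by 0.42, Hirip3 by 0.78 and H3f3b, which encodes the replacement histone H3.3, by 0.32. For chromatin maintenance 8 of 11 members outside the pairs were higher and 1 lower, with a median of 0.22. Dnmt1, which copies DNA methylation to the new strand, changed by 0.48, Suz12 by 0.61 and Cbx5, a heterochromatin protein, by 0.47. Dnmt3a, a methylase that sets new marks, was the member that fell (change -0.45, adjusted p = 4.0e-05).

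Regulators divided by role. Of 7 genes of the E2F and Rb axis outside the pairs, 4 passed as higher, with a median of 0.35. Mybl2, a transcription factor of the cell cycle, rose from 31.2, 35.4, 46.9 and 35.1 CPM in G1 to 67.0, 68.8, 76.5 and 63.3 CPM in S (change 0.89, SE 0.08, adjusted p = 1.2e-12). Among cell cycle inhibitors and D cyclins, 2 of 9 outside the pairs were higher and 6 lower, with a median of -0.58. The antiproliferative genes Btg1 and Btg2 fell, with changes of -0.51 and -0.65. Cdkn2c, an inhibitor of the D cyclin kinases, changed by 0.72 with adjusted p = 2.3e-07. Ccnd2, a D cyclin named after its value was seen, fell from 386, 449, 340 and 355 CPM in G1 to 233, 233, 262 and 271 CPM in S (change -0.58, SE 0.13, adjusted p = 0.042).

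Genes of recombination, mismatch repair and checkpoints were higher for 13 of 22 members outside the pairs and lower for none that passed, with a median of 0.37. Eme1, part of a nuclease that cuts joined DNA, rose from 12.9, 13.6, 19.8 and 14.8 CPM in G1 to 40.6, 36.6, 38.7 and 39.95 CPM in S (change 1.34, SE 0.11, adjusted p = 3.0e-13). Rad51ap1, a partner of the recombinase, changed by 0.89 and Blm, a helicase of recombination, by 0.72. All 3 tested genes of cohesin and condensin outside the pairs passed as higher. Esco2, which locks cohesin on sister strands and is read by cyclone, had a change of 1.90.

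Genes of mitosis had the largest median change of the 19 gene groups. Of 40 measured members, 34 are read by cyclone, and the other 6 all passed as higher with a median of 2.02. Kif20a, a motor of cell division, rose from 19.9, 20.5, 31.2 and 25.1 CPM in G1 to 103, 100, 116 and 107 CPM in S (change 2.14, SE 0.08, adjusted p = 1.3e-24). On the scale of the 12 sums it stood at 192, 203, 191 and 208 CPM in G2M, above every S value. Summed in plain CPM, the whole mitosis list stood at 1585.4 to 1934.0 in G1, 4997.1 to 5476.6 in S and 9491.7 to 11938.6 in G2M. The histone list by contrast stood at 2273.9 to 2961.7 in S and 2259.8 to 3008.4 in G2M, so the 2 labels overlapped.

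**Figure D2:**
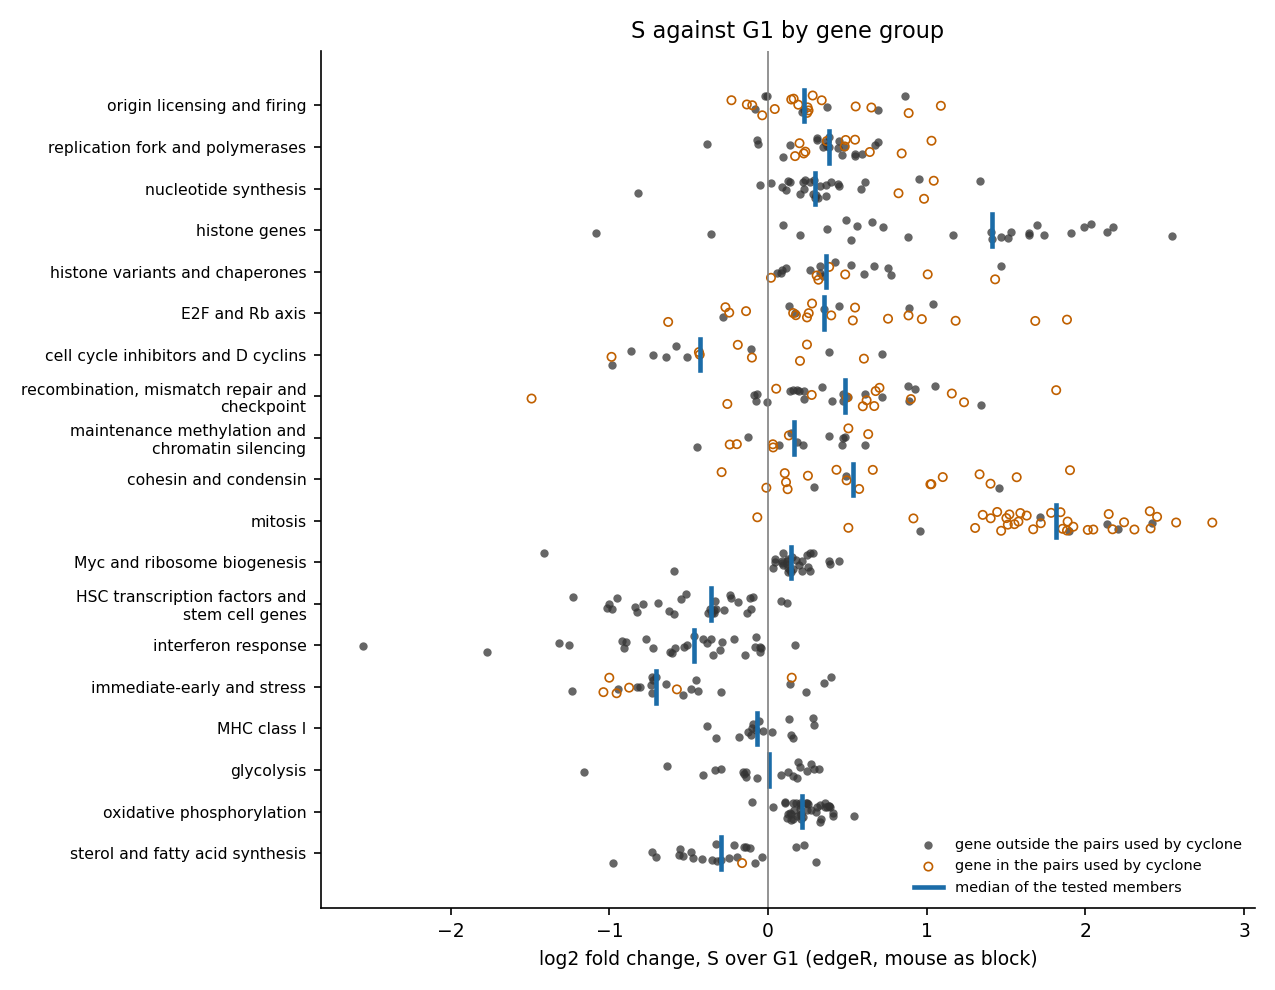
Log2 fold change of S over G1 for the tested members of 19 gene groups, with filled points for genes outside and open points for genes inside the pairs that cyclone reads, and a bar at the median of all tested members. Genes of mitosis and histones lie farthest to the right, and stem cell, interferon, immediate-early and sterol genes lie mostly left of 0.

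A second set of phase calls divided the G1 label. Scored with the Seurat lists of S and G2M genes, 6622 cells (44.6%) were S, and 6069 of these were labelled G1 in the deposited metadata. The 1047 cells labelled S divided into 502 called S, 505 called G2M and 40 called G1. Levels of genes in neither phase list are given for cells sorted by both calls, in plain CPM over the 4 mice and with no test, since both sets of calls read the same cells. The 8 such genes of origin licensing summed to 225.1 to 249.7 in cells that were G1 by both, 465.8 to 490.2 in cells labelled G1 and called S, and 492.0 to 537.0 in cells that were S by both. The 19 of the replication fork stood at 1441.0 to 1571.3, 2521.1 to 2648.0 and 2687.8 to 2911.9 in the same 3 classes. These groups were thus already near their S level in the cells labelled G1 that the lists called S.

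Histone genes and Tk1 showed another order. The 29 histone genes summed to 704.7 to 1007.0 CPM in cells that were G1 by both, 756.7 to 1090.2 in cells labelled G1 and called S, and 2525.5 to 3384.2 in cells that were S by both. Within the G1 label the histone sum rose in each mouse, most in PyMT 2, from 852.5 to 1090.2 CPM. The larger step in each mouse lay between the labels. Tk1 stood at 12.5 to 18.2, 183.4 to 237.9 and 415.9 to 468.5 CPM in the same 3 classes. Kif20a stood at 4.5 to 8.5, 21.7 to 29.5 and 80.5 to 97.5 CPM, at 106.2 to 124.5 CPM in cells labelled S and called G2M, and at 180.8 to 210.9 CPM in cells that were G2M by both. Between each class and the next, the ranges of Kif20a over the mice did not overlap.

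**Figure D3:**
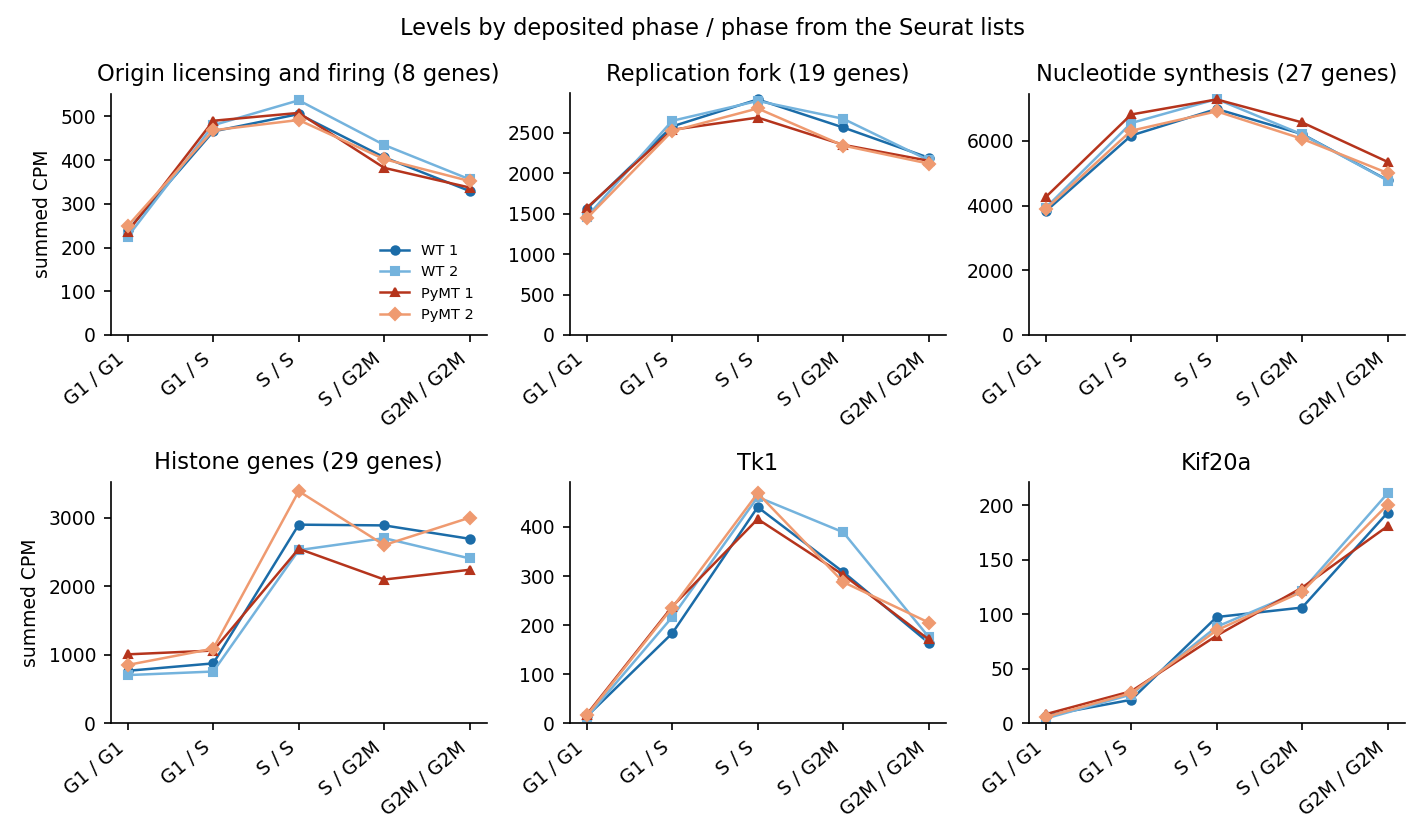
Plain CPM, summed over the genes of a group that are in neither phase list, for cells sorted by the deposited label and by the phase from the Seurat lists, each line 1 mouse. Origin, fork and nucleotide genes step up mainly between G1 / G1 and G1 / S, histone genes mainly between G1 / S and S / S.

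Immediate-early and stress genes were mostly lower in S. Of 19 members outside the pairs, 13 passed as lower and 4 as higher, with a median of -0.65. Ier2, an early response gene, fell from 309, 399, 353 and 455 CPM in G1 to 181, 231, 222 and 270 CPM in S (change -0.74, SE 0.04, adjusted p = 5.2e-20). Jun, a subunit of AP-1, changed by -0.73. The 4 that rose were the chaperone genes Hsp90aa1, Hspa8, Hspa5 and Hsph1, with a change of 0.40 for Hsp90aa1. Pim1, a kinase gene induced by cytokines, fell from 393, 361, 575 and 677 CPM to 203, 213, 321 and 356 CPM (change -0.88, SE 0.04, adjusted p = 4.6e-23). S lay below G1 in each mouse, and the PyMT mice were above the WT mice under both labels. Among the 10 tested genes with the smallest p on the lower side, Tcp11l2 changed by -1.79 and Rgs1, a regulator of G protein signalling, by -1.33.

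Genes of stem cells were lower in S. Of 30 transcription factors and surface genes of stem cells, 25 passed as lower and 1, Cd48, as higher, with a median of -0.36. Hlf, a transcription factor of stem cells, fell from 97.7, 130, 49.2 and 70.5 CPM in G1 to 51.9, 81.3, 26.5 and 37.97 CPM in S (change -0.84, SE 0.08, adjusted p = 2.0e-12). Procr, a surface marker of stem cells, fell from 27.4, 28.1, 20.4 and 28.1 CPM to 10.5, 12.4, 10.2 and 11.1 CPM (change -1.23, SE 0.13, adjusted p = 3.5e-10). Meis1, a homeobox factor, changed by -0.52. Socs3, a feedback inhibitor of cytokine signalling, fell from 13.1, 8.92, 75.04 and 61.7 CPM to 6.70, 5.86, 30.2 and 24.9 CPM (change -1.24, SE 0.11, adjusted p = 7.5e-13).

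Interferon and sterol genes were lower too. Of 29 interferon response genes, 20 passed as lower and none as higher, with a median of -0.46. Irf7, a transcription factor of that response, fell from 20.4, 25.2, 18.9 and 36.8 CPM in G1 to 10.5, 9.52, 7.47 and 14.6 CPM in S (change -1.25, SE 0.14, adjusted p = 3.5e-10). Ifitm3, an antiviral membrane protein, fell from 945, 932, 1339 and 1253 CPM to 702, 696, 1062 and 968 CPM. Of 24 genes of sterol and fatty acid synthesis outside the pairs, 12 passed as lower and 1 as higher, with a median of -0.31. Insig1, a brake on sterol synthesis, changed by -0.98 and Sqle, squalene epoxidase, by -0.54. With the Seurat calls the sterol list gave 7 higher and 7 lower and a median of 0.05.

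Genes of growth changed by small steps. Steps of this size depend on the scaling, since the median over all tested genes was -0.02 here and -0.13 with plain library totals. Of 40 nuclear genes of oxidative phosphorylation, 37 passed as higher and 1 as lower, with a median of 0.21. Atp5o, a subunit of ATP synthase, rose from 424, 424, 717 and 714 CPM in G1 to 592, 586, 888 and 939 CPM in S (change 0.41, SE 0.03, adjusted p = 7.6e-14). Of 30 genes of ribosome biogenesis and Myc, 17 were higher and 2 lower, with a median of 0.14. Npm1, a nucleolar chaperone, changed by 0.19 and Ncl, nucleolin, by 0.26, whereas Myc fell by 0.59. Glycolysis gave 9 higher and 6 lower of 20 with a median of 0.01, which became -0.10 with plain library totals. MHC class I gave 5 higher and 5 lower of 16, with a median of -0.07.

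Cells labelled S were of another lineage mix than cells labelled G1. Clusters were built without cell cycle genes and named from marker lists. They still differed by phase: cluster 7, led by Cdkn3, Ube2c and Hmmr, was 90.3% G2M by label. S made up 13% of cluster 4 and 14.48% of cluster 9, both granulocyte-monocyte-like, and 5.20% of cluster 3, lymphoid-like. It made up 8.69% of cluster 2, megakaryocyte-erythroid-like, where 5 of 6 basophil and mast cell markers were also more than 2-fold above the other cells. In cluster 1, HSC-like, it made up 1.30%, and 98.02% of those cells were labelled G1. A lower level in S can therefore be a lower level per cell or fewer cells of a type, which the sums over a label do not tell apart. The summed level of the 10 granulocyte-monocyte markers was 6616.7, 3163.5, 10828.5 and 7705.1 CPM in G1 and 10787.3, 4499.7, 14151.5 and 10405.4 CPM in S, and 5 of the 10 passed as higher. The 10 HSC markers summed to 411.3, 496.2, 283.2 and 381.5 CPM in G1 and to 213.2, 289.0, 150.2 and 212.4 CPM in S, and 8 passed as lower. The 10 megakaryocyte-erythroid markers stood at 868.7 to 2479.1 CPM in G1 and 604.0 to 2130.3 CPM in S, with 2 lower, and 3 of 7 lymphoid markers were lower. The 6 basophil and mast cell markers stood at 334.3, 349.1, 291.6 and 350.6 CPM in G1 and at 802.1, 300.0, 169.5 and 284.0 CPM in S, so WT 1 stood apart in S. Markers of neutrophils summed to 4.5 to 26.5 CPM, of macrophages to 33.9 to 63.8 CPM and of marrow stroma to 21.8 to 44.3 CPM over both labels. Of the defining markers, Ltf, Cd79a, Cd3e, Cxcl12 and Col1a1 are not listed in the table analysed here.

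With as many G1 cells as S cells drawn from each cluster in each mouse, the replication and mitosis groups moved by less and the stem cell group mostly no longer passed. Because the clusters differed by phase as well as by lineage, the draw can match cells on both, and the part of each was not tested. That draw keeps 130 to 372 cells per label and mouse, so fewer genes can pass: 604 of 8587 genes outside the pairs were higher and 527 lower. Mitosis still had 6 of 6 members higher with a median of 1.44, histone genes 15 of 23 higher and 1 lower with 1.02, the fork 10 of 21 higher and 1 lower with 0.19. Nucleotide synthesis had 7 of 27 higher and 1 lower with a median of 0.09, and origin licensing none of 8, with a median of 0.00. Oxidative phosphorylation had 14 of 40 higher and 1 lower with 0.08, and ribosome biogenesis 3 higher and 2 lower of 30 with 0.03. Stem cell genes had 6 of 27 lower with a median of -0.14, and Hlf changed by -0.17 (adjusted p = 0.35). Interferon genes had 10 of 28 lower with -0.30, immediate-early genes 7 of 17 lower and 1 higher with -0.19, sterol genes 7 of 23 lower with -0.29. Granulocyte-monocyte markers had 2 higher and 2 lower of 10. Of 2197 genes higher over all cells that could be fitted here, 2054 kept their sign, as did 1591 of 1651 lower genes. Those genes were chosen by their call in the same mice and most of the same cells labelled S, so a kept sign is a weak check.

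The share of cells labelled S did not differ between WT and PyMT mice beyond the spread of the mice. It was 6.90% in WT 1 (95% Clopper-Pearson interval 6.07 to 7.80), 6.29% in WT 2 (5.31 to 7.38), 8.11% in PyMT 1 (7.24 to 9.05) and 6.78% in PyMT 2 (6.13 to 7.47). The intervals cover counting error only. PyMT 2 lay between the WT mice, and the difference of the means was 0.85 percentage points (exact two-sided permutation p = 0.667). With 4 mice the test has 3 splits and cannot give a p below 0.333. The G1 share was 73.79% and 74.03% in WT and 73.88% and 75.82% in PyMT. For G2M it was 19.32% and 19.68% in WT and 18.02% and 17.40% in PyMT, a difference of -1.79 points at the smallest p the test can give, with no overlap. That G2M difference was -1.34 with cyclone, -2.25 with cyclone on thinned cells and -0.89 with equal cluster weights, each without overlap. By the Seurat lists it was -0.28 with overlap, and 0.19 by those lists on thinned cells. Without the cluster led by mitotic genes it was 1.48. Of that cluster 90.3% was labelled G2M, so leaving it out removes many of the cells being counted.

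**Figure D4:**
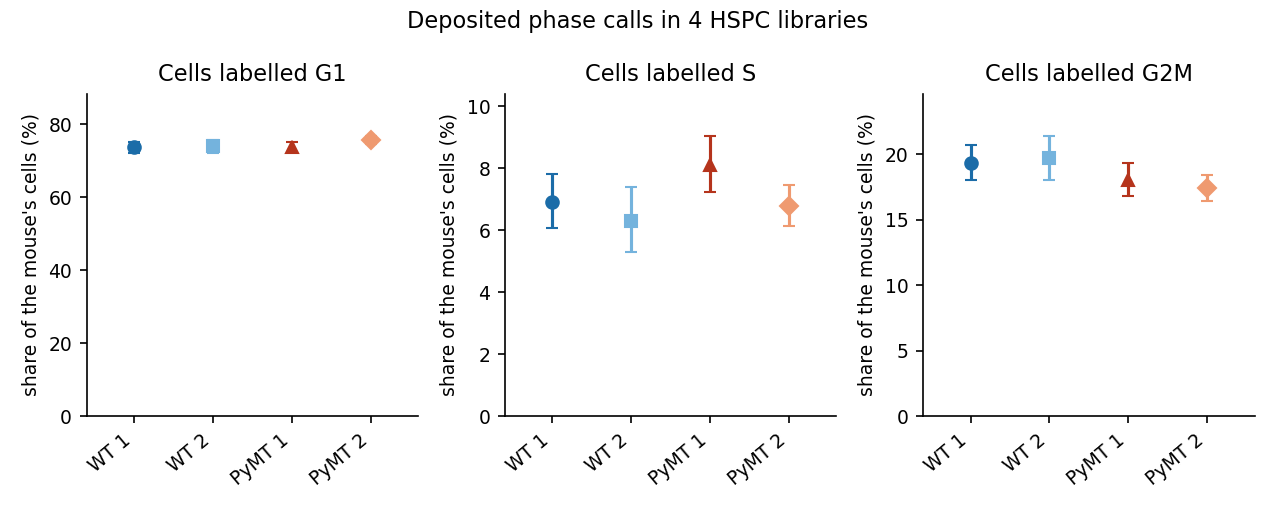
Share of each mouse's cells labelled G1, S and G2M, with 95% Clopper-Pearson intervals as bars, WT mice in blue and PyMT mice in red and orange. PyMT 2 falls between the WT mice for S, and both PyMT mice lie below both WT mice for G2M.

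The direction of the S share depended on the calls and on the mix of cells. With the Seurat lists S was 42.46% and 40.50% in WT and 50.06% and 44.06% in PyMT, with no overlap, a difference of 5.58 points. With 9 clusters weighted equally it was 8.58% and 9.13% in WT and 6.56% and 7.24% in PyMT, which reverses the difference to -1.96 points. Within cluster 5, unnamed and with Hdc, Mrgpra2b, Ctsg and Mcpt8 as its leading genes by fold, S was 21.34% and 17.65% in WT and 11.93% and 13.71% in PyMT. In WT 2 these are 6 of 34 cells, with an interval of 6.76% to 34.53%, so the equal weights rest in part on small clusters. Within cluster 0, with Jchain, Ifit1 and Socs3 among its leading genes, S was 8.33% and 12.5% in WT and 2.19% and 2.57% in PyMT. The WT mice had 108 and 48 cells in that cluster. In cluster 4 S was 12.31% and 10.61% in WT and 14.95% and 11.07% in PyMT, and in cluster 2 it was 7.77% and 9.31% against 8.13% and 9.68%. The genotypes overlapped in both of these clusters. The cell mix moved in the other direction: cluster 4, granulocyte-monocyte-like, held 13.98% and 5.04% of cells labelled S in WT and 37.67% and 16.58% in PyMT. Among cells labelled G1, cluster 1, HSC-like, held 28.0% and 35.27% in WT and 8.57% and 8.73% in PyMT. Cluster 0 held 3.68% and 2.38% of the cells labelled G1 in WT and 19.65% and 34.13% in PyMT.

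Whether the change from G1 to S differed by genotype was tested with the interaction of label and condition in 10900 genes. The change was more positive in PyMT for 13 genes (0.119%) and more negative for 101 (0.927%). Outside the genes that cyclone reads it was more positive for 11 of 10281 (0.107%) and more negative for 64 (0.623%). Tk1, Tubb5 and Stmn1 lie outside them. Tk1 differed by -0.59 (SE 0.07, adjusted p = 6.2e-09). Its log2 ratio of S over G1 was 1.63 and 1.66 in the WT mice and 0.95 and 1.21 in the PyMT mice. Over WT, Tk1 in PyMT was higher in G1 by 0.53 (SE 0.10, adjusted p = 0.037), and its difference in S was -0.06 (SE 0.11, adjusted p = 0.85). Tubb5, a beta-tubulin, differed by -0.35 and Stmn1, stathmin, by -0.31, with adjusted p of 9.3e-08 and 4.3e-07. For Tubb5 the ratios were 1.21 and 1.11 in WT and 0.74 and 0.91 in PyMT. DESeq2 ends all 3 calls, with adjusted p of 0.063 for Tk1, 0.28 for Tubb5 and 0.52 for Stmn1, and without WT 2 the adjusted p of Stmn1 was 0.061. Equal cells per cluster gave -0.56 for Tk1 (adjusted p = 2.1e-05), -0.35 for Tubb5 and -0.30 for Stmn1. Within single clusters Tk1 differed by -0.26 in cluster 2, 0.06 in cluster 3 and 0.17 in cluster 6, and none of these passed. For Tubb5 the values were -0.39 (adjusted p = 0.0011), 0.07 and 0.06, and for Stmn1 -0.27 (adjusted p = 0.047), -0.07 and -0.09, the last pair of each not past the threshold. The Seurat calls end the calls too, with -0.06 for Tk1 (adjusted p = 0.96), 0.10 for Tubb5 and -0.11 for Stmn1.

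The other markers are read by cyclone, so their ratios are given without a test. For Mcm6 the log2 ratios of S over G1 were 0.14 and 0.19 in WT and -0.17 and 0.04 in PyMT. Those of E2f1 were 0.01 and 0.18 in WT and -0.46 and -0.18 in PyMT, and those of Tyms 1.25 and 1.22 in WT and 0.70 and 1.04 in PyMT. Each of these genes had its higher ratios in the WT mice, with no overlap.

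**Figure D5:**
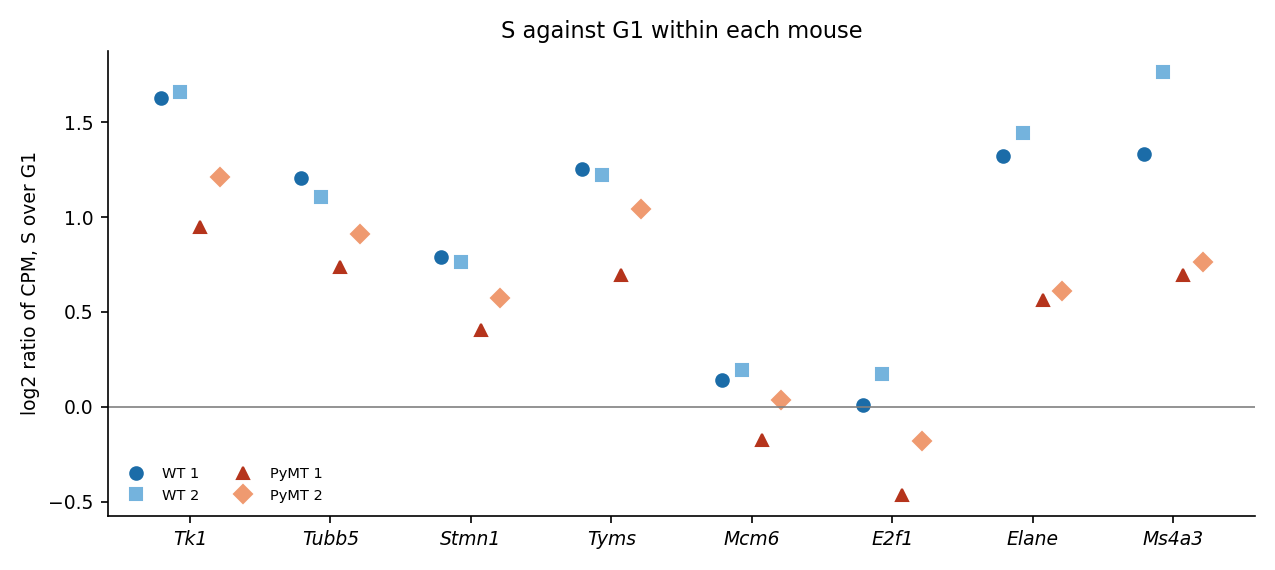
Log2 ratio of CPM in cells labelled S over cells labelled G1 for 8 genes, each point 1 mouse. Both WT mice lie above both PyMT mice for each gene shown, with 1.63 and 1.66 against 0.95 and 1.21 for Tk1. Tk1, Tubb5, Stmn1, Elane and Ms4a3 were chosen by the smallest p of this difference, and cyclone reads Tyms, Mcm6 and E2f1.

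Some members of the replication lists outside the pairs passed this test. Over all tested genes outside the pairs, 64 of 10281 (0.623%) were more negative in PyMT. The change was more negative in PyMT for 3 of 21 fork genes, with a median difference of -0.18, for 5 of 27 nucleotide genes, with -0.13, and for 2 of 29 histone genes, with -0.53. Mitosis had 1 of 6 with -0.42 and origin licensing none of 8 with -0.15, beside a median of -0.02 over all tested genes outside the pairs. No member of these 5 lists passed as more positive in this fit. Within cluster 3 the fork median turned to 0.17, with 7 of 21 genes negative, and within cluster 6 the mitosis median turned to 0.34, with 2 of 6 negative, and no fork or mitosis gene passed in either cluster. DESeq2 called 3 genes over the whole table, each more negative in PyMT. With the Seurat calls no member of these lists passed, and the medians of fork and nucleotide genes turned to 0.01 and 0.04. Without WT 2, the mouse with 139 cells labelled S, 2 genes were more positive and 10 more negative over the whole table, and 8 of the 114 differences passed again in the same direction. In PyMT 1 a smaller share of the cells labelled S had S as highest score, as given above, and its part in the differences was not tested. With only such cells kept as S, the 21 fork genes gave no call and a median of -0.14, and without PyMT 1 they gave 1 call and a median of -0.13.

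Elane and Ms4a3, genes of neutrophil and monocyte precursors, had among the smallest p of the difference. Elane stood at 722, 206, 1729 and 975 CPM in G1 and at 1804, 562, 2556 and 1488 CPM in S, and the change differed by -0.79 (SE 0.05, adjusted p = 1.6e-28). Ms4a3 stood at 103, 36.9, 201 and 135 CPM in G1 and at 260, 127, 326 and 230 CPM in S, a difference of -0.75 (SE 0.09, adjusted p = 6.7e-09). With equal cells per cluster the differences became 0.01 (adjusted p = 0.999) and 0.04 (adjusted p = 0.99), which ends both calls. Within cluster 6, unnamed, Elane differed by 1.98 the other way (adjusted p = 5.4e-09), and within clusters 2 and 3 by -0.95 and -0.19, which did not pass. The value in cluster 6 rests on few cells labelled S, 18 and 17 in the WT mice and 22 and 45 in the PyMT mice. D cyclin genes, named after their values were seen, lay on the other side: Ccnd2 differed by 0.42 and Ccnd1 by 0.95.

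Within cells labelled S, PyMT was compared with WT directly. Of 9408 genes, 26 (0.276%) were higher and 6 (0.0638%) lower in PyMT. Within cells labelled G1, 123 of 11477 (1.07%) were higher and 73 (0.636%) lower. The genes of this paragraph that lie outside the naming rule were chosen after their values were seen. Socs3 was higher in PyMT cells labelled S by 2.10 (adjusted p = 0.0096), Ifitm1, a membrane protein induced by interferon, by 1.55 (adjusted p = 0.022), Junb, a subunit of AP-1, by 1.11 and Pim1 by 0.69. For Kit, the receptor of stem cell factor, PyMT over WT was -0.79 (adjusted p = 0.029). Kit stood at 101 and 117 CPM in S of the WT mice and at 64.9 and 61.7 CPM in the PyMT mice, and at 125, 152, 74.5 and 87.1 CPM in G1. Each of these genes had the same direction in cells labelled G1. These counts rest on single mice: with 1 mouse left out they ran from 11 to 311 higher and from 2 to 208 lower in cells labelled S.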

How the data were processed

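Single-cell RNA counts of HSPC from 4 mice, 2 WT and 2 PyMT by the genotype label, were analysed. The other samples and files of the series were not used here. The deposited table holds raw UMI counts for 11992 genes and 14842 cells, and the counts of each cell sum to the total in the authors' metadata. Per the submitters' processing notes, Cell Ranger 6.0.0 and the mouse build mm10 were used. Per the labels, droplet 3′ chemistry was used, with v3.1 named for loading the cells and v2 or v3 for the libraries. The deposited metadata give 3 phase scores per cell as a fraction (the 3 sum to 1) and the mitochondrial share as a percent (4.50 at most). No source used here gives the filters on cells and genes, the tool and genes behind the phases or any removal of doublets. Each gene had UMIs in at least 22 cells and each cell had 1466 to 19995 UMIs. Doublets were not called.

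UMIs were summed per mouse and phase and passed to the quasi-likelihood test of edgeR 4.0.16 in R 4.3.3 (robust fit, TMM scaling, genes kept by filterByExpr, p adjusted over all tested genes by Benjamini-Hochberg, threshold 0.05). All adjusted p-values are from edgeR unless DESeq2 1.42.0 is named. The fit of S against G1 had mouse as a block, since both sums come from the same mouse. The difference between conditions was the interaction of phase and condition in that fit. CPM of single genes are TMM-normalised and sums over lists are plain CPM. Log2 ratios of single mice have a pseudocount of 0.5 CPM. Shares were compared by exact permutation (scipy 1.17.1). Phases were called anew with cyclone (scran 1.30.0) and with the Seurat 5.3.0 lists, of which 42 of 43 S genes and 52 of 54 G2M genes were found. Cells were clustered with scanpy 1.11.5 and leidenalg 0.10.2 (2000 variable genes, 30 components, 20 neighbours, resolution 0.6) without 791 cell cycle genes. A fit within clusters was planned at 50 cells per phase and mouse. None reached that, and 10 cells was used instead, in 3 clusters.

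On simulated counts for 10596 genes, 200 of them changed, the fit of S against G1 recovered 75.5% of 1.5-fold and 89% of 2-fold changes. Of its calls, 1.95% and 5.32% were false. For the difference between conditions the recovered shares were 29.5% and 66%, and 0% and 7.04% of the calls were false. The simulated mice shared 1 mean level per gene, so differences between mice and in lineage mix were not simulated. Members and gene lists were chosen with earlier results of these data known. Named genes are the 4 markers, the 10 highest and 10 lowest by p among genes outside the Seurat lists, up to 5 members with the smallest p per list, and the 5 genes with the smallest p of the difference between conditions. Some genes that the rule or the lists hold are not reported here. Alternatives were other size factors, DESeq2, no filter on low counts, no block, thinning to 2000 UMIs, equal cells per cluster, other phase calls and leaving out each mouse. Plain library totals, cells with S as highest score and leaving out the mitotic cluster were chosen after seeing the data. No other correction for batch was made, since each mouse is 1 library.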

Additional observations from a re-analysis of the deposited data

Results flagged for a closer look

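The change from G1 to S differed between PyMT and WT mice in the test of that difference (edgeR, adjusted over 10900 genes) for 5 named genes that cyclone does not read. Tk1 differed by -0.59, Tubb5 by -0.35 and Stmn1 by -0.31 on the log2 scale. Elane differed by -0.79 and Ms4a3 by -0.75, and these 2 differences were 0.01 and 0.04 with equal cells per cluster. DESeq2 ended the calls of Tk1, Tubb5 and Stmn1, and the Seurat calls ended all 5. In each of the 5 genes both WT mice had the larger ratio of S over G1. The 5 were chosen by the smallest p of this same test, so that order follows from the choice. The test rests on 2 mice per genotype and 2 residual degrees of freedom before moderation.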

How the results depend on the processing

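Of the 114 genes whose change differed between genotypes, all 114 kept their sign when any 1 mouse was left out, with DESeq2 and with plain totals, 107 of 112 with equal cells per cluster and 77 of 114 with the Seurat calls. These genes were chosen by their call in the same mice, so a kept sign is a weak check. Fewer passed again: 2 with DESeq2, 63 with plain totals, 12 thinned, 33 with equal cells, 2 with the Seurat calls, and 22, 94, 45 and 8 without PyMT 1, PyMT 2, WT 1 and WT 2. Within clusters 2, 3 and 6 the sign held for 100 of 109, 67 of 108 and 71 of 110, and 5, 0 and 0 passed again. Named genes that were lost without a sign change include Tk1 and Stmn1 as given above. The causes of the shifts below were not tested, except that thinning, equal cells and S cells with the S score highest use fewer UMIs.

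The counts of genes higher and lower in S (2231 and 1945) were 1648 and 943 with DESeq2, 1341 and 3161 with plain totals, 1294 and 888 with thinned cells, 811 and 564 with equal cells per cluster, 3406 and 3536 with the Seurat calls and 1332 and 795 with the S score highest. Without the replicate block, which pairs the 2 sums of a mouse, they were 658 and 590. Leaving out 1 mouse gave 1816 to 2117 and 1367 to 1772. The counts of differences between genotypes (13 more positive, 101 more negative) were 0 and 3 with DESeq2 (25 and 113 at an unadjusted p under 0.05), 16 and 50 with plain totals, 0 and 15 with thinned cells (263 and 318 unadjusted), 13 and 45 with equal cells, 20 and 12 with the Seurat calls, 7 and 28 with the S score highest, and 2 to 18 and 10 to 134 with 1 mouse left out. Single clusters gave 0 and 6 in cluster 2, none in cluster 3 and 2 and 0 in cluster 6.

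Within cells labelled S (26 higher and 6 lower in PyMT) the higher count was 52 with DESeq2, 12 with plain totals and 3 with thinned cells (0 lower; 305 and 267 unadjusted). It was 99 with 41 lower without a filter, 13 with 2 lower for equal cells, 5 with 0 lower for the S score highest (403 and 323 unadjusted), 26 lower with the Seurat calls, and 11 to 311 with 2 to 208 lower with 1 mouse left out. Within G1 (123 and 73) it was 405 higher with DESeq2, 17 and 44 with plain totals, 2 and 2 with equal cells, 69 and 25 with the Seurat calls, and 13 to 741 and 11 to 411 with 1 mouse left out.

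The difference in the S share (0.85 points) was 5.58 with the Seurat calls, 5.15 on thinned cells, -1.96 with equal weights, -0.48 with the S score highest and 0.18 to 1.51 with 1 mouse left out. For G1 (0.94) it was -5.3, -5.34 when thinned, 2 with cyclone on thinned cells, 2.85 with equal weights, -2.53 without the mitotic cluster and -0.03 to 1.91. For G2M (-1.79) it was -0.28 with the Seurat calls, 0.19 when thinned, -1.34 with cyclone, -2.25 with cyclone on thinned cells, -0.89 with equal weights, 1.48 without the mitotic cluster and -2.1 to -1.48.

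Single genes that changed sign with a call in either fit were Mcm6 with equal cells (-0.15) and, with the Seurat calls, E2f1 (2.76), Ung (2.63), Cenpa (-0.20), H3f3b (-0.36), Cdkn2d (-0.35) and Sqle (0.11). Sign changes without a call include Mcm6 with plain totals (-0.068) and without WT 2 (-0.004), E2f1 with thinned cells (0.061) and Elane with equal cells (-0.026). Over all clusters together, the difference between genotypes changed sign for Elane (0.008 with equal cells, 0.85 with the Seurat calls), Ms4a3 (0.043 and 0.59) and Tubb5 (0.10 with the Seurat calls).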
